A study of Mus musculus with 18 samples.

Results

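Interferon-stimulated genes are the genes that cells switch on after interferons bind their receptors, and 38 of them were followed through 18 lymphomas of the mouse spleen. The 38 were fixed by name. A gene was measured where a probe set carried its symbol and no other, which held for 34 of the 38, each with 1 probe set, among 19938 genes measured in all. Isg15, Gbp2 and Igtp were covered only by probe sets that also carried a second symbol, and Ifi44 was not listed with a probe set, so these 4 were not analysed here.

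The tumours were end-stage splenic tumours of 18 mice, 1 tumour a mouse. All 18 mice had the Eμ-Myc transgene, whose Myc is under an enhancer of the immunoglobulin heavy chain locus and is active in the B lineage, and the labels give C57BL/6 as the background strain. The groups differed in Prdm11, a gene of the PRDM family, with 9 tumours from Prdm11 wild-type mice (WT) and 9 from Prdm11 knockout mice (KO). No treatment was given, and the sources used here do not state age, sex or the cell types in which Prdm11 was deleted. The tumours were frozen and homogenised without a stated sorting step, so the RNA came from lymphoma cells together with every other cell in the spleen.

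Type I interferons signal through the Ifnar receptor and the kinases Jak1 and Tyk2 to a complex that holds Stat2 and Irf9 and binds a DNA element called the interferon-stimulated response element (ISRE). Interferon gamma, made mainly by T cells and natural killer (NK) cells, signals through its own receptor, and its targets include guanylate-binding proteins and the chemokines Cxcl9 and Cxcl10. The products of the 34 genes bind or degrade foreign RNA, block viral assembly, sense RNA, carry the signal onwards, or recruit T cells.

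RefSeq promoter windows (GRCm38.p6, 250 bases before to 50 after a transcript start, 300 in all) were found for 29 of the 38 genes, in 33 windows. The core of the ISRE was searched as GAAANNGAAA on both strands, with overlapping matches counted separately. It was present in 17 of the 33 windows, from 16 of the 29 genes, and in 3.44% of all 32851 windows. The interferon gamma-activated site, searched as TTCNNNGAA, which reads the same on both strands, was present in 5 of the 33 windows and in 8.3% of all. The genes are known interferon targets, so these counts describe the list. The 250 bases before the start are shown for 5 genes, from windows that held a core. Levels of 4 of them followed the T cell content of the tumours, and the fifth, Rsad2, followed the erythroid markers. Of the other genes that followed T cell content, Trim30a also had a core. Cxcl9 and Samd9l had 0 matches in their windows, and the rest had no window. A second window of Gbp3 also had 0 matches. Capitals mark the ISRE core, and the sequence runs 5′ to 3′ on the strand of the gene.
Ifit1, chr19:34640639-34640888, plus strand: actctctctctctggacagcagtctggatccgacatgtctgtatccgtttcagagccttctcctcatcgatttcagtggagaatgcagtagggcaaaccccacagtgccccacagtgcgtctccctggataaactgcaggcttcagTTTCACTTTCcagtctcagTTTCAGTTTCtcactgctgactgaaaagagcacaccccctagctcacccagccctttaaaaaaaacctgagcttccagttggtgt
Ifit3, chr19:34583279-34583528, plus strand: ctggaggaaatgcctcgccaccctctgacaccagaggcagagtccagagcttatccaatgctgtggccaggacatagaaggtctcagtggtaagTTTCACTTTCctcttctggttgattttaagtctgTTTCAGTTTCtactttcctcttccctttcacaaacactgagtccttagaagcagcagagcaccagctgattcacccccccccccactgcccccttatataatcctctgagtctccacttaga
Cxcl10, chr5:92348890-92349139, minus strand: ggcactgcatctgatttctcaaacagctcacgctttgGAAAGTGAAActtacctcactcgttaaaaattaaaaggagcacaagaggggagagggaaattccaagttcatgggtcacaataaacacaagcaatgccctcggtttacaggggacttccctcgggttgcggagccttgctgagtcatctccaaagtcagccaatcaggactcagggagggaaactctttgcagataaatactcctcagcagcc
Gbp3, chr3:142559794-142560043, plus strand: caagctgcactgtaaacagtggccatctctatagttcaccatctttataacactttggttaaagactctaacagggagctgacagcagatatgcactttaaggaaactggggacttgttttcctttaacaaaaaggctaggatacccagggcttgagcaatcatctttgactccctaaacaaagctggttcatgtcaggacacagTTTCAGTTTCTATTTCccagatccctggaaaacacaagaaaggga
Rsad2, chr12:26456453-26456702, minus strand: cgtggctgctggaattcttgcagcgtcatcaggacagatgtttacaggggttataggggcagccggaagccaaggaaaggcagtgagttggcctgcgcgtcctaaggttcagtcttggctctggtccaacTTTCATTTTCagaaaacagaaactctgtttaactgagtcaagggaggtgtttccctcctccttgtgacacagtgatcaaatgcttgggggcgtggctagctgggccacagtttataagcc
The cores began 104 and 85 bases before the start in Ifit1, 156 and 122 before it in Ifit3, 213 before it in Cxcl10, 120 before it in Rsad2, and 45 and 39 before it in Gbp3, where both matches overlap.

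Levels are log2 intensities, and a difference is the KO mean minus the WT mean. Array medians ran from 5.14 to 5.38 on this scale. WT tumour 3 had the array least like the others, with a median correlation to them of 0.924 against 0.957 to 0.975 for the remaining 17. The Prdm11 probe set ran from 4.84 to 5.66 in WT tumours (median 5.33) and from 4.87 to 5.49 in KO tumours (median 5.21), so the groups overlapped, and the sources used here do not say where it lies relative to the deleted part, so it does not check the labels. All 11 measured B cell markers were above the median gene in mean level. In KO tumours these 11 markers had positive differences, with a list mean of 7.23 ± 0.33 (SD, n = 9) against 6.78 ± 0.31 in WT tumours, and all 11 erythroid markers had negative differences, with a list mean of 7.02 ± 0.49 against 7.65 ± 0.65. The part of these shifts in the results below was not tested except where a fit with such a list is named. In whole tumours, fewer cells of a type and less RNA per cell cannot be told apart.

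The 34 genes differed widely in level and in range. Their means over 18 tumours ran from 4.04 for Mx2 to 8.67 for Samd9l, and 26 of the 34 lay above the median gene, at 5.39. The gap between the lowest and the highest tumour was 1.76-fold for Oasl1 and 13.6-fold for Rtp4. Mx1, Mx2, Cmpk2 and Dhx58 were among the dim genes, with means of 4.27, 4.04, 4.69 and 4.80.

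**Figure D1:**
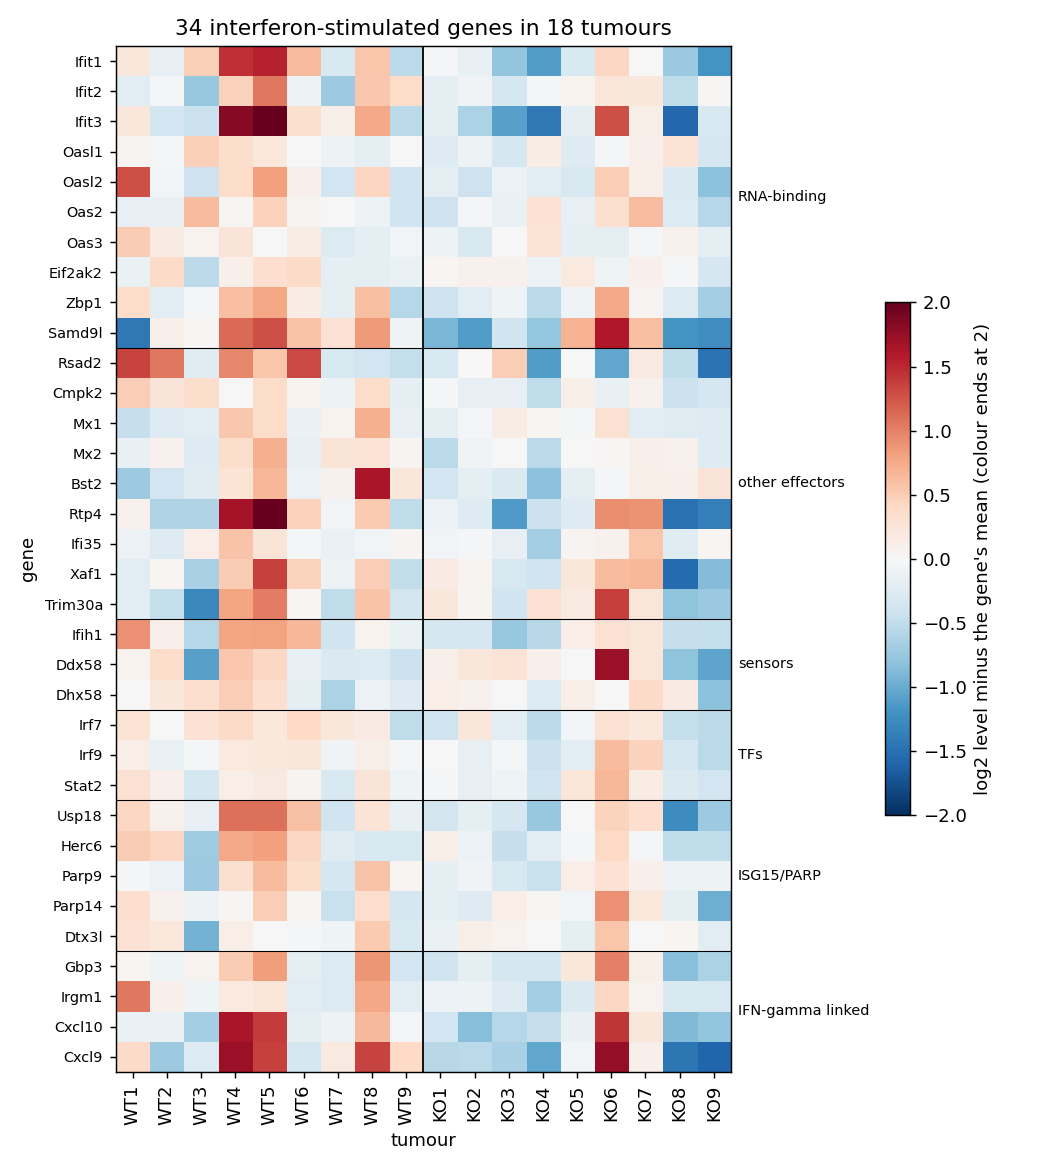
Levels of the 34 genes (vertical) in 9 WT and 9 KO tumours (horizontal), each as log2 level minus the mean of the gene over 18 tumours. The genes are grouped by role, and WT tumours 4, 5 and 8 and KO tumour 6 are red for most genes, while KO tumours 8 and 9 are mostly blue.

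The mean over the 34 genes gave 1 value for each tumour. In WT tumours 1 to 9 it was 6.26, 6.09, 5.86, 6.73, 6.85, 6.27, 5.93, 6.47 and 5.90, and in KO tumours 1 to 9 it was 5.91, 5.93, 5.85, 5.70, 6.09, 6.63, 6.32, 5.60 and 5.51. The highest 4 tumours were WT tumours 5 and 4, KO tumour 6 and WT tumour 8, and the lowest 3 were KO tumours 9, 8 and 4. The mean over genes was 6.26 ± 0.36 (SD, n = 9) in WT tumours against 5.95 ± 0.36 (SD, n = 9) in KO tumours, giving a difference of -0.31. The groups overlapped, with 7 of 9 KO tumours below the WT median and 4 below every WT tumour. This difference has no test, since the genes were chosen as a list. It was -0.40 without KO tumour 6 and -0.24 without WT tumour 5.

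Between the genotypes, 31 of the 34 genes had a negative difference and none passed the threshold. In limma, 0 of 34 had an adjusted p below 0.05, where 0.00502% of all genes (1 gene) passed, and 8 of 34 were lower in KO tumours at an unadjusted p below 0.05, against 3.87% of all genes. At the same p 0 were higher in KO tumours, against 2.83% of all genes. A negative difference was found in 59.2% of all genes. The median difference was -0.30 over the 34 genes and -0.03 over all genes. The 8 became 15 without KO tumour 6, 4 without WT tumour 4, and 5 without WT tumour 5, KO tumour 3 or KO tumour 4. No gene of the 34 separated the genotypes completely, and how many of all genes did was not counted.

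**Figure D2:**
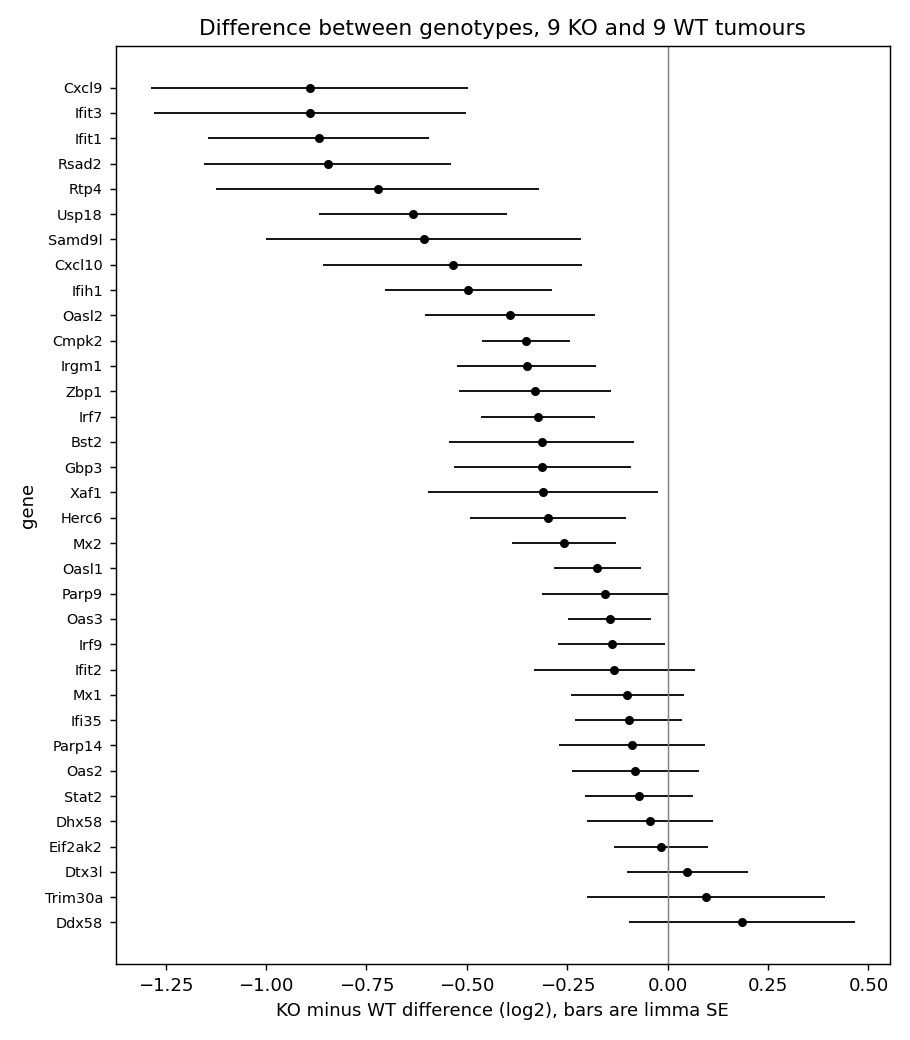
KO minus WT difference (horizontal, log2) of each of the 34 genes (vertical), with points for the limma estimate and bars for its SE, over 9 KO and 9 WT tumours. The estimates run from -0.89 for Cxcl9 to 0.18 for Ddx58, and 31 lie below 0.

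Among the 10 genes whose products act on RNA or nucleotides or restrict translation, Ifit3 and Ifit1, whose proteins bind viral RNA, had the most negative differences. Ifit1 ran from 5.10 through a median of 6.11 to 7.16 in WT tumours and from 4.43 through 5.31 to 6.04 in KO tumours. All 9 KO tumours lay below the WT median for Ifit1 and 4 lay below every WT tumour. Its difference was -0.87 (SE 0.27, limma adjusted p = 0.667), and with T cell and erythroid list means in the model it was -0.42. Ifit3 ran from 6.81 through 7.59 to 9.47 in WT and from 5.79 through 7.05 to 8.64 in KO tumours, giving a difference of -0.89 (SE 0.39, limma adjusted p = 0.719). The highest Ifit3 level of each group was in a tumour rich in T cell transcripts, WT tumour 5 and KO tumour 6. Ifit2, next to Ifit3 on chromosome 19, had the same median in both groups, 4.91, and a difference of -0.13 (SE 0.20). Ifit proteins have close paralogs, and probe sets of near-identical members may share signal.

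The other 7 of this group had differences between -0.61 and -0.02. Samd9l, an inhibitor of translation, ran from 7.24 through 8.96 to 9.97 in WT and from 7.43 through 7.91 to 10.28 in KO tumours, with the highest level of all in KO tumour 6 and a difference of -0.61 (SE 0.39). Zbp1, a sensor of Z-form nucleic acid that triggers cell death, had a difference of -0.33 (SE 0.19), and 8 of 9 KO tumours lay below its WT median. The oligoadenylate synthetases Oas2 and Oas3, which activate RNase L, had differences of -0.08 (SE 0.16) and -0.14 (SE 0.10). Their relatives Oasl1 and Oasl2 had -0.17 (SE 0.11) and -0.39 (SE 0.21). Eif2ak2, the kinase PKR that shuts off translation on double-stranded RNA, was the closest to 0, at -0.02 (SE 0.12).

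Among the 9 other antiviral effectors, Rsad2 and its neighbour Cmpk2 had the smallest p. Rsad2 encodes viperin, which makes a chain-terminating nucleotide, and Cmpk2 encodes a mitochondrial nucleotide kinase transcribed beside it on chromosome 12. Rsad2 ran from 6.91 through 7.93 to 8.73 in WT and from 5.91 through 7.06 to 7.87 in KO tumours, giving a difference of -0.85 (SE 0.31, limma adjusted p = 0.699). Cmpk2 ran from 4.49 through 4.94 to 5.17 in WT and from 4.18 through 4.52 to 4.80 in KO tumours, giving a difference of -0.35 (SE 0.11, limma adjusted p = 0.667). For both genes all 9 KO tumours lay below the WT median, while the groups overlapped. Rtp4, a chaperone of membrane receptors, had the widest range of all, from 6.42 to 9.29 in WT and from 5.52 to 7.95 in KO tumours, and a difference of -0.72 (SE 0.40). Bst2, tetherin, which holds budding virus at the cell surface, had -0.31 (SE 0.23), with WT tumour 8 highest at 9.50. The dynamin-like GTPases Mx1 and Mx2 had -0.10 (SE 0.14) and -0.26 (SE 0.13), Xaf1, a pro-apoptotic protein, had -0.31 (SE 0.29), and Ifi35 had -0.10 (SE 0.13). Trim30a, a TRIM family protein, had a positive difference of 0.10 (SE 0.30), which was -0.07 without KO tumour 6 and -0.06 without WT tumour 3.

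The 3 sensors of viral RNA had differences of either sign, and none passed the adjusted threshold. Ifih1, MDA5, the sensor of long double-stranded RNA, ran from 6.02 through 6.69 to 7.50 in WT and from 5.83 through 6.26 to 6.90 in KO tumours, giving a difference of -0.50 (SE 0.21, limma adjusted p = 0.712). Ddx58, RIG-I, the sensor of RNA ends, had a difference of 0.18 (SE 0.28), with KO tumour 6 at 8.02 against 5.25 to 6.58 in the other KO tumours. Without that tumour the Ddx58 difference was -0.02. Dhx58, LGP2, which modulates both, had -0.04 (SE 0.16).

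Of the 3 transcription factors, Irf7, the amplifier of type I interferon production, had the most negative difference. It ran from 4.57 through 5.32 to 5.48 in WT and from 4.56 through 4.88 to 5.39 in KO tumours, giving a difference of -0.32 (SE 0.14, limma adjusted p = 0.719). Irf9 and Stat2, which act in the complex that binds the ISRE, had -0.14 (SE 0.13) and -0.07 (SE 0.13). Irf9 was narrow in WT tumours, from 5.38 to 5.74, and wider in KO tumours, from 4.97 to 6.15, with 5 KO tumours below and 2 above every WT tumour.

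Among the 5 genes of ISG15 conjugation and ADP-ribosylation, Usp18 had the most negative difference. Usp18 removes ISG15 from proteins and damps signalling at the Ifnar receptor. It ran from 5.73 through 6.41 to 7.24 in WT and from 4.87 through 5.79 to 6.58 in KO tumours, giving a difference of -0.63 (SE 0.23, limma adjusted p = 0.699). Herc6, the ISG15 ligase of the mouse, had -0.30 (SE 0.19), with all 9 KO tumours below the WT median. Parp9 and Parp14, of the ADP-ribosyltransferase family, had -0.16 (SE 0.16) and -0.09 (SE 0.18). Dtx3l, the ubiquitin ligase partner of Parp9, had 0.05 (SE 0.15), which turned to -0.07 without WT tumour 3 and to -0.02 without KO tumour 6.

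The 4 genes most closely tied to interferon gamma all had negative differences. Their ranges over 18 tumours were 10.2-fold for Cxcl9, 5.72-fold for Cxcl10, 3.60-fold for Gbp3 and 3.34-fold for Irgm1. Cxcl9, a chemokine that attracts activated T cells through Cxcr3, ran from 5.46 through 6.58 to 7.91 in WT and from 4.61 through 5.65 to 7.96 in KO tumours. The highest Cxcl9 level of all was in KO tumour 6, and 3 other KO tumours lay below every WT tumour. Its difference was -0.89 (SE 0.40, limma adjusted p = 0.719). Cxcl10, a ligand of the same receptor, ran from 4.71 through 5.28 to 7.02 in WT and from 4.50 through 4.93 to 6.82 in KO tumours, giving a difference of -0.54 (SE 0.32). Gbp3, a guanylate-binding protein, had -0.31 (SE 0.22), and Irgm1, an immunity-related GTPase that acts on intracellular vacuoles, had -0.35 (SE 0.17).

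T cell content was measured as the mean level of 20 T cell markers, none of them among the 34 genes. It set 4 tumours apart, at 6.26 in WT tumour 5, 6.50 in WT tumour 4, 6.58 in WT tumour 8 and 6.70 in KO tumour 6, against 5.13 to 5.70 in the other 14. In these 4 tumours, 10 of the 20 T cell markers were above every other tumour. Markers of NK and cytotoxic cells separated the same tumours, at 6.45 to 7.29 against 4.51 to 5.92, and 8 of the 12 did so singly. Dendritic cell markers did too, at 5.66 to 5.95 against 4.75 to 5.20, with 2 of 9 singly. In mean level, 13 of 20 T cell, 5 of 12 NK and 3 of 9 dendritic markers were above the median gene. Most of the NK and dendritic markers were therefore dim. These lists cannot be told apart as partners of the interferon-stimulated genes in these 18 tumours.

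The interferon-stimulated genes were high in the tumours rich in T cell transcripts. Their mean was 6.47 to 6.85 in these 4 tumours and 5.51 to 6.32 in the other 14, without overlap. For 24 of the 34 genes the highest tumour was 1 of the 4. For 8 genes all 4 lay above the other 14: Ifit3, Zbp1, Samd9l, Mx1, Trim30a, Gbp3, Cxcl10 and Cxcl9. How many of all genes did either was not counted, so these counts only describe the list. The widest gap was that of Cxcl9, at 7.55 to 7.96 against 4.61 to 6.59. Cxcl10 lay at 6.04 to 7.02 against 4.50 to 5.62, and Ifit3 at 8.10 to 9.47 against 5.79 to 7.68.

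A slope on the T cell list mean was fitted with genotype in the model, in log2 units per log2 unit. Of the 34 genes 11 had a positive slope past the adjusted threshold of limma, where 2.72% of all genes did, and none had a negative one. Positive slopes were found in 32 of 34 genes and in 40.7% of all genes, and the median slope was 0.46 against -0.03 over all genes. The genes tied to interferon gamma led, with 3 of 4 past the threshold. Irgm1 did not pass, with a slope of 0.36 (SE 0.16, limma adjusted p = 0.294). Cxcl9 had a slope of 1.59 (SE 0.19, limma adjusted p = 2.63e-05), Cxcl10 had 1.28 (SE 0.16, limma adjusted p = 4.69e-05) and Gbp3 had 0.86 (SE 0.12, limma adjusted p = 0.000106). Of the RNA-binding group 4 of 10 passed. These were Ifit3 at 1.41 (SE 0.24), Samd9l at 1.33 (SE 0.27), Ifit1 at 0.89 (SE 0.20) and Zbp1 at 0.68 (SE 0.12). Of the other effectors 3 of 9 passed, Rtp4 at 1.33 (SE 0.28), Trim30a at 1.10 (SE 0.18) and Mx1 at 0.50 (SE 0.09). Parp9 passed at 0.46 (SE 0.12), and 0 of 3 sensors and 0 of 3 transcription factors did. The slopes of Rsad2, at -0.22 (SE 0.31), and Oas3, at -0.08 (SE 0.10), were the negative ones.

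In the other 14 tumours, a comparison made after the data were seen, slopes were positive for 29 of 34 genes, with a median of 0.65. In that fit 0 of the 34 genes and 0% of all genes passed the adjusted threshold of limma, so its adjusted count does not tell the genes from the rest of the array. At an unadjusted p below 0.05, 4 of the 34 had a positive slope against 0.782% of all genes: Samd9l at 3.14 (SE 1.15), Rtp4 at 2.61 (SE 1.07), Cxcl9 at 2.46 (SE 0.84) and Gbp3 at 1.31 (SE 0.52). With 1 tumour left out of the 18, the count of 11 ran from 8 without KO tumour 6 to 15 without WT tumour 1. Parp9 lost its call in 13 of the 18 such fits, with an adjusted p of 0.0509 to 0.115. Ifit1 lost it without WT tumour 4 (limma adjusted p = 0.0662) or KO tumour 6 (0.0626), and Samd9l without KO tumour 6 (0.115). With the macrophage list mean as a further covariate, the limma adjusted p was 0.0546 for Ifit3, 0.109 for Ifit1, 0.167 for Rtp4 and 0.415 for Parp9. With the median over the T cell list in place of the mean, it was 0.0528 for Rtp4 and 0.21 for Parp9, and Parp9 was at 0.0576 with a mean-variance trend.

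**Figure D3:**
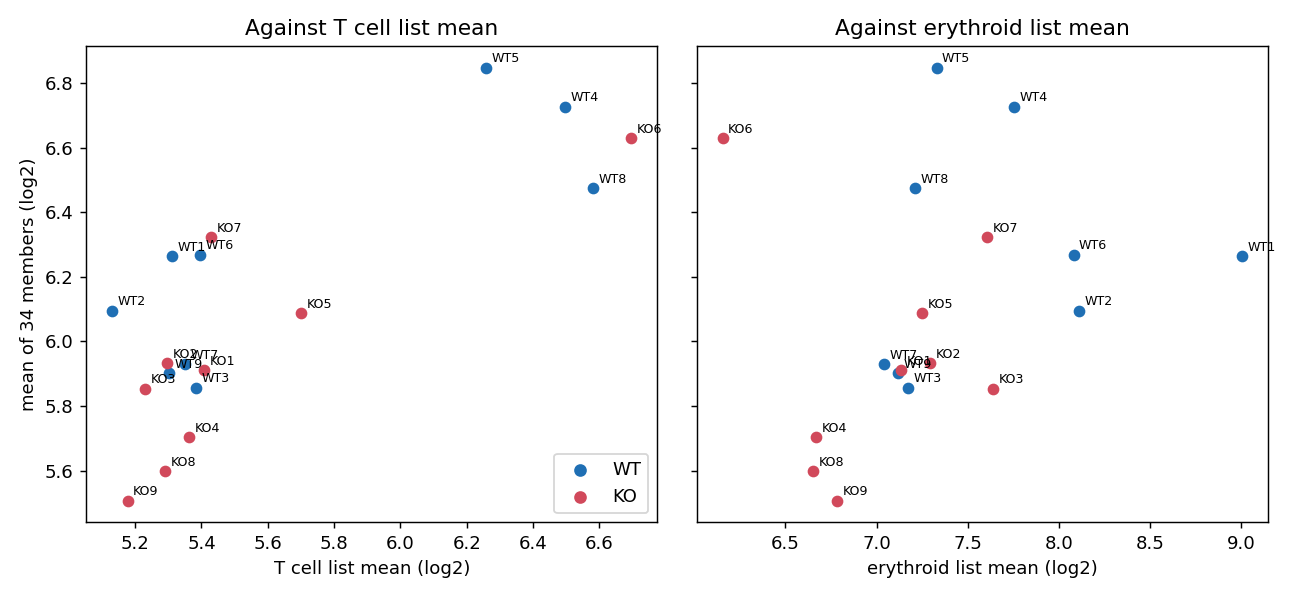
Mean log2 level of the 34 genes in each tumour (vertical) against the mean log2 level of the T cell list (left) and of the erythroid list (right), with WT tumours in blue and KO tumours in red. On the left, 4 tumours stand apart at a T cell mean of 6.26 to 6.70, and on the right the other 14 tumours lie along a rising band.

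Because the tumours form separate groups in T cell content, a relation of the mean over the 34 genes with T cell content is given first within the 14. These 14 span a narrow range of the T cell list mean, 5.13 to 5.70. Pearson's r was 0.35 and Spearman's rho 0.44 over these 14 tumours, and r was 0.60 without KO tumour 5 and WT tumour 2, the farthest from the median. Over all 18 tumours r was 0.80 and rho 0.72, and r was 0.82 within the 9 WT and 0.82 within the 9 KO tumours. Within WT tumours r was 0.84 without WT tumours 4 and 8, and within KO tumours it was 0.70 without KO tumours 5 and 6. The points share their arrays, and the mean is a score over chosen genes, so no p is given.

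The test of whether the T cell slope differed between genotypes gave 0 calls among the 34 genes and 0% among all genes in limma. At an unadjusted p below 0.05 there were 4 of 34, against 2.75% of all genes. Ddx58 at 1.05 and Stat2 at 0.46 had a steeper slope in KO tumours, and Bst2 at -0.90 and Mx1 at -0.37 a shallower one. KO tumour 6 was the 1 KO tumour rich in T cell transcripts.

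Rsad2, whose T cell slope did not pass, rose with the erythroid list mean, a relation examined after the data were seen. The erythroid list mean, over 11 markers of red cell precursors, ran from 7.04 through 7.33 to 9.00 in WT tumours and from 6.16 through 7.14 to 7.64 in KO tumours. WT tumours 1, 2 and 6, with the highest erythroid means, at 9.00, 8.11 and 8.08, had the highest Rsad2 levels, at 8.73, 8.44 and 8.70. KO tumours 9, 4 and 6 had the lowest Rsad2 levels, at 5.91, 6.27 and 6.35, and erythroid means of 6.78, 6.67 and 6.16.

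With genotype and the T cell list mean in the model, the slope of Rsad2 on the erythroid list mean was 1.17 (SE 0.16, limma adjusted p = 0.000207). Of the 34 genes 4 passed the adjusted threshold, where 2.01% of all genes did with a positive slope. Rsad2 passed in each of 29 alternative fits, with an adjusted p of 0.000122 to 0.0315. The other 3 were Oasl2 at 0.58 (SE 0.14, limma adjusted p = 0.0296), Usp18 at 0.56 (SE 0.14, 0.0359) and Ifih1 at 0.57 (SE 0.14, 0.036). The count fell to 1 without WT tumour 1, WT tumour 3, WT tumour 7 or KO tumour 7, and to 2 without WT tumour 6. Slopes were positive for 29 of 34 genes and for 42.1% of all genes, with a median of 0.26. Without the T cell list mean in the model, 21 of 34 were positive, the median was 0.035 and 1 gene passed. Cmpk2, the neighbour of Rsad2, had a slope of 0.26 (SE 0.10, limma adjusted p = 0.179).

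**Figure D4:**
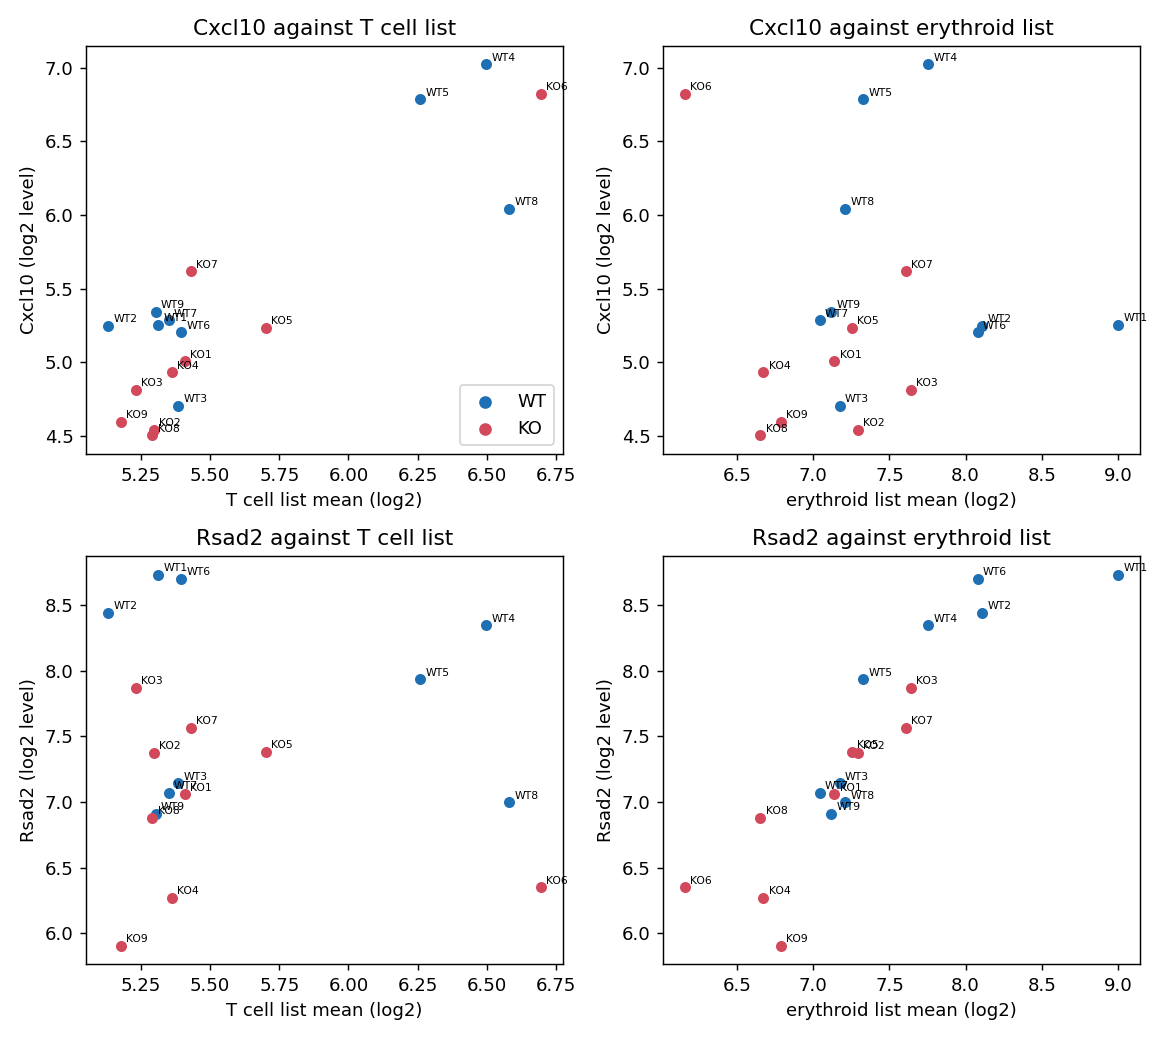
Log2 levels (vertical) of Cxcl10 (top) and Rsad2 (bottom) in each tumour against the T cell list mean (left) and the erythroid list mean (right), WT in blue and KO in red. Cxcl10 is highest in the 4 tumours with a T cell mean of 6.26 to 6.70, while Rsad2 rises along the erythroid mean.

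In the same joint fit, with the erythroid list mean beside the T cell list mean, 19 of 34 genes had a positive T cell slope past the adjusted threshold, against 2.69% of all genes. The mean over the 34 genes had an r of 0.79 and a rho of 0.77 with the erythroid list mean in the 14 tumours, and an r of 0.82 without WT tumours 1 and 2. Over all 18 tumours this r was 0.26 and rho 0.47, and r was 0.15 within the 9 WT and -0.06 within the 9 KO tumours. In the 14 tumours, with the macrophage list mean r was 0.55 and rho 0.56, and with the B cell list mean r was 0.10 and rho 0.16. With the dendritic list mean r was 0.45 and rho 0.32 in these tumours. The NK list gave 0.11 and 0.11, and the neutrophil list -0.16 and -0.11. KO tumour 6 combined the highest T cell mean with the lowest erythroid mean.

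**Figure D5:**
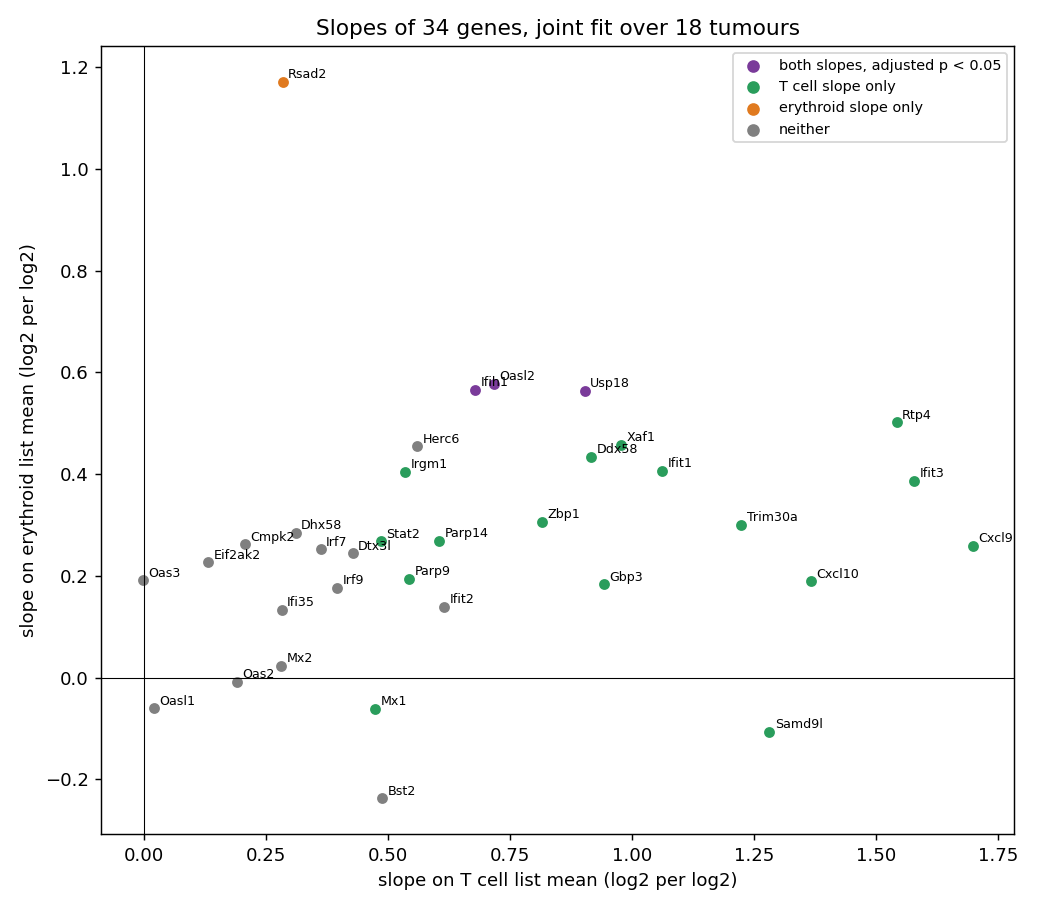
Slope of each of the 34 genes on the T cell list mean (horizontal) and on the erythroid list mean (vertical), both in log2 units per log2 unit, from a joint fit with genotype over 18 tumours. Rsad2 lies alone at an erythroid slope of 1.17 and a T cell slope of 0.28, and Cxcl9 lies at the far right, with a T cell slope of 1.70.

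With both list means in the model, the genotype differences of the 34 genes lay around 0. Their mean was -0.02 where it had been -0.31, their median was -0.02, and 19 of 34 were negative, against 60.6% of all genes. None was lower at an unadjusted p below 0.05, and 2 were higher, Trim30a at 0.50 (SE 0.20, limma adjusted p = 0.272) and Ddx58 at 0.62 (SE 0.27, limma adjusted p = 0.299). Of all 19938 genes, 1585 were lower and 1317 were higher at that p in the same fit. The 2 higher genes are therefore no more than the array gives. With the T cell list mean alone the mean difference was -0.21, and with the erythroid list mean alone it was -0.29. With the macrophage list mean alone it was -0.15, with 27 of 34 negative and 3 lower at an unadjusted p below 0.05. The shares of all genes in that fit are not given here. Markers of other cells were also lower in mean in KO tumours, with negative differences for 14 of 16 macrophage, 12 of 12 neutrophil, 11 of 12 NK, 8 of 9 dendritic and 16 of 20 T cell markers. The part of the neutrophil, NK and dendritic markers in the genotype differences was not tested. In the 14 tumours, the mean over the genes ran from 5.86 to 6.27 in 6 WT tumours and from 5.51 to 6.32 in 8 KO tumours, giving a difference of -0.19, and 25 of 34 genes had a negative difference against 58.5% of all genes. These covariates come from the same arrays and differ between the genotypes, so composition and genotype cannot be told apart here.

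The 34 genes did not vary as 1 block. Over 18 tumours, 11 of them had an r above 0.8 with the mean of the other 33, with Usp18 highest at 0.93, Rtp4 at 0.93 and Zbp1 at 0.91. Oas3, at 0.11, and Oasl1, at 0.23, followed the others least. Neighbouring genes differed in how alike they were. Cxcl9 and Cxcl10 had an r of 0.92 over 18 tumours and Ifit1 and Ifit3 had 0.87, while Rsad2 and Cmpk2 had 0.62, Mx1 and Mx2 0.56, Oasl1 and Oasl2 0.25, and Oas2 and Oas3 0.14. These values describe tumours that share arrays and cell composition.

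Of 90 further genes of the interferon pathway, 0 passed the adjusted threshold of limma by genotype and 6 were lower in KO tumours at an unadjusted p below 0.05, against 3.87% of all genes. Upstream of the 34 genes, the interferons themselves had a list mean of 4.74 ± 0.11 (SD, n = 9) in WT tumours against 4.73 ± 0.13 in KO tumours. Both list means lay below the median gene, at 5.39, and means of single ligands ran from 2.25 for Ifna11 to 7.04 for Ifnl2. Ligands near background limit what this comparison can show about interferon supply. Of 16 measured ligands 0 passed the limma threshold by genotype or by T cell content, and 1 had an unadjusted p below 0.05 in each, Ifng. Ifnb1 had a mean of 3.84 ± 0.26 (SD, n = 9) in WT tumours against 3.86 ± 0.18 in KO tumours, and the alpha interferons are near-identical copies whose probe sets may share signal. Ifng, interferon gamma, had a mean of 5.44 ± 0.42 in WT tumours against 4.94 ± 0.38 in KO tumours, giving a difference of -0.50 (SE 0.18, limma adjusted p = 0.699). Its T cell slope was 0.44 (SE 0.15, limma adjusted p = 0.141).

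Of 6 receptor subunits, Ifnar1, a chain of the type I receptor, rose with T cell content, with a slope of 0.38 (SE 0.09, limma adjusted p = 0.023). Ifnar2 had a slope of 0.50 (SE 0.15, adjusted p = 0.083) and Ifngr1 0.73 (SE 0.24, adjusted p = 0.121) in limma. Of 9 kinases and transcription factors Irf1, which is induced by interferon gamma, passed, at 0.47 (SE 0.12, limma adjusted p = 0.0378). Of 11 sensors and adaptors, 2 passed: Tlr7, the endosomal sensor of single-stranded RNA, at 1.23 (SE 0.14, limma adjusted p = 2.63e-05) and Tlr3, the sensor of double-stranded RNA, at 0.72 (SE 0.13, limma adjusted p = 0.00197). Of 9 negative regulators the phosphatase Ptpn6 passed, at 0.60 (SE 0.15, limma adjusted p = 0.033), while Socs1 had a slope of -0.08 (SE 0.10). On the erythroid list mean, 4 of the 90 genes of these and the next list passed the limma threshold, against 2.01% of all genes. They were Isg20 at 1.05, Jak2 at 0.64, Pias1 at 0.66 and Uba7, the activating enzyme of ISG15, at 0.39. Uba7 was named because of its values.

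The remaining 39 of the 90 are interferon-induced genes. By genotype 0 of 39 passed the adjusted threshold of limma, 5 were lower at an unadjusted p below 0.05, against 3.87% of all genes, and 32 were negative, against 59.2%. Isg20, an exonuclease that degrades RNA, had a mean of 8.53 ± 0.64 in WT tumours against 7.45 ± 0.63 in KO tumours, giving a difference of -1.08 (SE 0.27, limma adjusted p = 0.535). Iigp1, an immunity-related GTPase, had -1.16 (SE 0.46), Ube2l6, the ISG15-conjugating enzyme, had -0.57 (SE 0.21), and Lgals3bp had -0.30 (SE 0.09). By T cell content 16 of 39 rose past the threshold, against 2.72% of all genes. The largest slopes were those of Ms4a4c, a membrane protein, at 2.60 (SE 0.25, limma adjusted p = 2.83e-06), Iigp1 at 1.72 (SE 0.26), Slfn1 at 1.66 (SE 0.30) and Gbp4 at 1.66 (SE 0.18). Isg20, as Rsad2, did not pass by T cell content, with a slope of -0.06 (SE 0.28), and passed on the erythroid list mean (limma adjusted p = 0.000153).

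Outside all lists, the 10 genes whose levels were most like the mean over the 34 genes, by Pearson's r over 18 tumours, were Ccl5 (0.91), Itm2b (0.89), Dnase1l3 (0.88), Cfb (0.88), Ccl19 (0.88), Ccdc80 (0.88), St6galnac5 (0.87), Rasgrp3 (0.87), Tmem176a (0.86) and Rab30 (0.85). Ccl5, a chemokine made by T cells and NK cells, ran from 7.18 to 10.2 in WT and from 6.60 to 10.1 in KO tumours. Ccl19, a chemokine of the T cell zone, ran from 7.30 to 9.08 and from 6.48 to 9.58. In 10 of these 10 genes the highest KO tumour was KO tumour 6. They were picked by likeness to the mean over the 34 genes, which was also highest among KO tumours in KO tumour 6. The count therefore follows largely from the choice of genes.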

How the data were processed

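Total RNA of 18 tumours was hybridised to Affymetrix arrays, 1 a tumour. The values the authors deposited were linear intensities of probe sets, and the submitters' processing notes name RMA, with its version not given in the sources used here. They were turned to log2 with no pseudocount, which the design had laid down for linear values. Of 35556 probe sets, 21789 had 1 gene symbol in the platform annotation, 1621 several and 12146 none. The probe set with the highest mean stood for each gene, which gave 19938 genes. Levels are not comparable between probe sets as transcript amounts.

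All genes were fitted with limma 3.58.1 (R 4.3.3, lmFit and eBayes): genotype alone, the T cell list mean with genotype, their interaction, and the erythroid list mean with both. Benjamini-Hochberg adjustment ran over all genes, with a threshold of 0.05. The number of arrays limits the precision. The genotype, T cell and interaction fits were tried on simulated data with independent noise for each gene. Such noise lacks the shared cell composition of these tumours, and the erythroid fit was not tried. Every gene of the list was named. Of other induced genes the 4 with the smallest p by genotype and the 4 with the largest T cell slope were named, and outside the lists the 10 most correlated. Genes and lists were chosen with earlier results of these data known. Each tumour came from its own mouse. Batches and scan dates are not given in the sources used here. Promoters come from RefSeq (GRCm38.p6). Python 3.11.15 was used for other steps. Alternatives covered probe set choice, normalization, a filter on dim genes, variance models, array weights, a replicate block, covariates and left-out tumours. The fits with the erythroid list, without the 4 tumours of highest T cell mean and without WT tumour 3 and KO tumour 6 were added after the data were seen.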

Additional observations from a re-analysis of the deposited data

Results flagged for a closer look

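A tumour stood far from the other 8 of its genotype for 10 of 84 sets of values checked with Dixon's criterion. For a single set, chance alone gives this in about 1 of 20. The 84 sets share their arrays and many vary together, so the count of 10 cannot be set against that rate. KO tumour 6 was the high one for Trim30a at 9.93, Ddx58 at 8.02, Dtx3l at 7.25, Cxcl10 at 6.82 and Cxcl9 at 7.96 among the interferon-stimulated genes, the T cell list mean at 6.70 and the dendritic list mean at 5.95. Among WT tumours, Samd9l was low in WT tumour 1, at 7.24, Irf7 was low in WT tumour 9, at 4.57, and the B cell list mean was high in WT tumour 2, at 7.51.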

How the results depend on the processing

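The difference of the mean over the 34 genes stayed negative in all 28 alternatives, from -0.45 without WT tumour 3 and KO tumour 6 to -0.02 with the T cell and erythroid list means, and from -0.40 to -0.24 with 1 tumour left out. With each gene scaled to unit SD it was -0.56 SD units. By genotype 0 genes passed in 32 alternatives, and the 31 negative differences became 19 with both list means and 28 to 34 with 1 tumour left out. The 3 positive differences turned sign in 4 of 32 alternatives for Trim30a, 2 of 32 for Ddx58 and 4 of 32 for Dtx3l. With both list means they were larger, at 0.50, 0.62 and 0.28. Trim30a was -0.043 with array weights, -0.06 without WT tumour 3, -0.07 without KO tumour 6 and -0.23 without both. Ddx58 was -0.02 without KO tumour 6 and -0.14 without both, and Dtx3l was -0.048 with array weights, -0.07 without WT tumour 3, -0.02 without KO tumour 6 and -0.13 without both. With 1 tumour left out they ran from -0.07 to 0.23 for Trim30a, from -0.02 to 0.33 for Ddx58 and from -0.07 to 0.12 for Dtx3l. The 11 T cell slopes became 7 with the macrophage list mean, 19 with the erythroid list mean, 0 without the 4 tumours of highest T cell mean (where 0 of all genes passed and the median slope of the 34 was 0.65 against 0.46), 6 without WT tumour 3 and KO tumour 6, and 8 to 15 with 1 tumour left out. The T cell slope of Oas3 was 0.0017 with array weights, and that of Rsad2 was 0.28 with the erythroid list mean and 0.58 in the 14 tumours. The 4 erythroid slopes became 2 after quantile normalization, 1 without the T cell list mean, 1 with the macrophage list mean in its place and 1 to 5 with 1 tumour left out. The cause of these moves was not tested. The main fits did not pair tumours by replicate number. Deviations of same-numbered tumours had correlations from -0.17 to 0.35, above 0.1 in 5 of 9 pairs. Differently numbered tumours were not compared in this way, so these values cannot decide whether the numbers mark pairs. With the replicate block, 6 genes passed by T cell content (Ifit1, Mx1, Parp9, Rtp4 and Zbp1 did not) and 1 by erythroid content, and 0 by genotype. The interaction and the pathway genes by genotype had 0 calls under every alternative run. Dim genes near background limit what can be seen, since 8 of the 34 lay at or below the median gene.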
